A study of Ovis aries with 15 samples.

Results

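Adipocyte genes were examined in the longissimus dorsi (LD), the long back muscle, of sheep at 5 stages of development. The genes listed were FABP4, PPARG, ADIPOQ, LEP, PLIN1, PLIN2, LPL and LIPE, and every probe set of the array annotated with 1 of these symbols alone was taken, whatever its values. Of the 8 genes, 7 had a probe set, of 9155 genes with 1 on the array, and PLIN1 had none. This gave 12 of the 24016 probe sets on the array that are not controls. FABP4 and LEP each had 2 probe sets, LIPE had 4, and the others had 1. Where a gene had several they are numbered from the brightest, by mean log2 signal, so that probe set 1 leads.

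The animals were crossbred Dorset/Suffolk/Rambouillet sheep with no treatment in the labels, with 3 different animals and 1 array each per stage, so that 15 arrays were used. Fetuses were sampled at 80 d, 100 d and 120 d of development, newborns at 150 d (1 to 3 days after birth) and young lambs at 230 d. All were male except 1 female at 100 d and 1 at 120 d, and the sex behind each array of those stages is not in the labels. Whole muscle was used, so a signal is a sum over fibres, fat cells, vessels and other cells, and a lower signal from fewer cells of a type cannot be told apart from less RNA per cell. The arrays carry cattle probes, so a dim probe set may reflect a poor sequence match as well as a low transcript level. Fold changes were therefore taken between stages within a probe set. Signals of different probe sets were set side by side only to rank those of 1 gene and to form marker sums, in which the brightest probe sets weigh most.

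Fat cells within muscle form the marbling of meat and lie among fibres that handle the same lipids. PPARG is the nuclear receptor that drives adipocyte differentiation, and FABP4, a fatty acid carrier of the adipocyte cytoplasm, is among its targets. LPL releases fatty acids from blood lipoproteins for uptake. PLIN1 and PLIN2 coat lipid droplets, LIPE (hormone-sensitive lipase) breaks down the stored lipid, and ADIPOQ (adiponectin) and LEP (leptin) are hormones secreted by fat cells. LPL, PLIN2 and LIPE are also used by muscle fibres, and FABP4 is also found in capillary endothelium and macrophages.

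The values are MAS5 signals, scaled by the authors so that each array averaged 200. A signal under 50 was treated as dim, and a probe set was tested when it reached 50 on at least 3 of the 15 arrays. Of the 12 probe sets, 9 of 6 genes passed. The exceptions were both LEP probe sets and 1 of LIPE, which stayed under 50 on all 15 arrays. Array medians ranged from 51.4 to 69.4 and the share of probe sets at 50 or more ranged from 50.7% to 58.1%. The array's 3' to 5' actin ratio, a measure of RNA or labelling quality that is higher when the 5' end is poorly represented, was 1.66 to 2.21 at 80 d, 1.27 to 1.73 at 100 d, 0.933 to 1.14 at 120 d, 0.852 to 0.953 at 150 d and 0.937 to 1.04 at 230 d. Its part in the results was not tested.

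**Figure D1:**
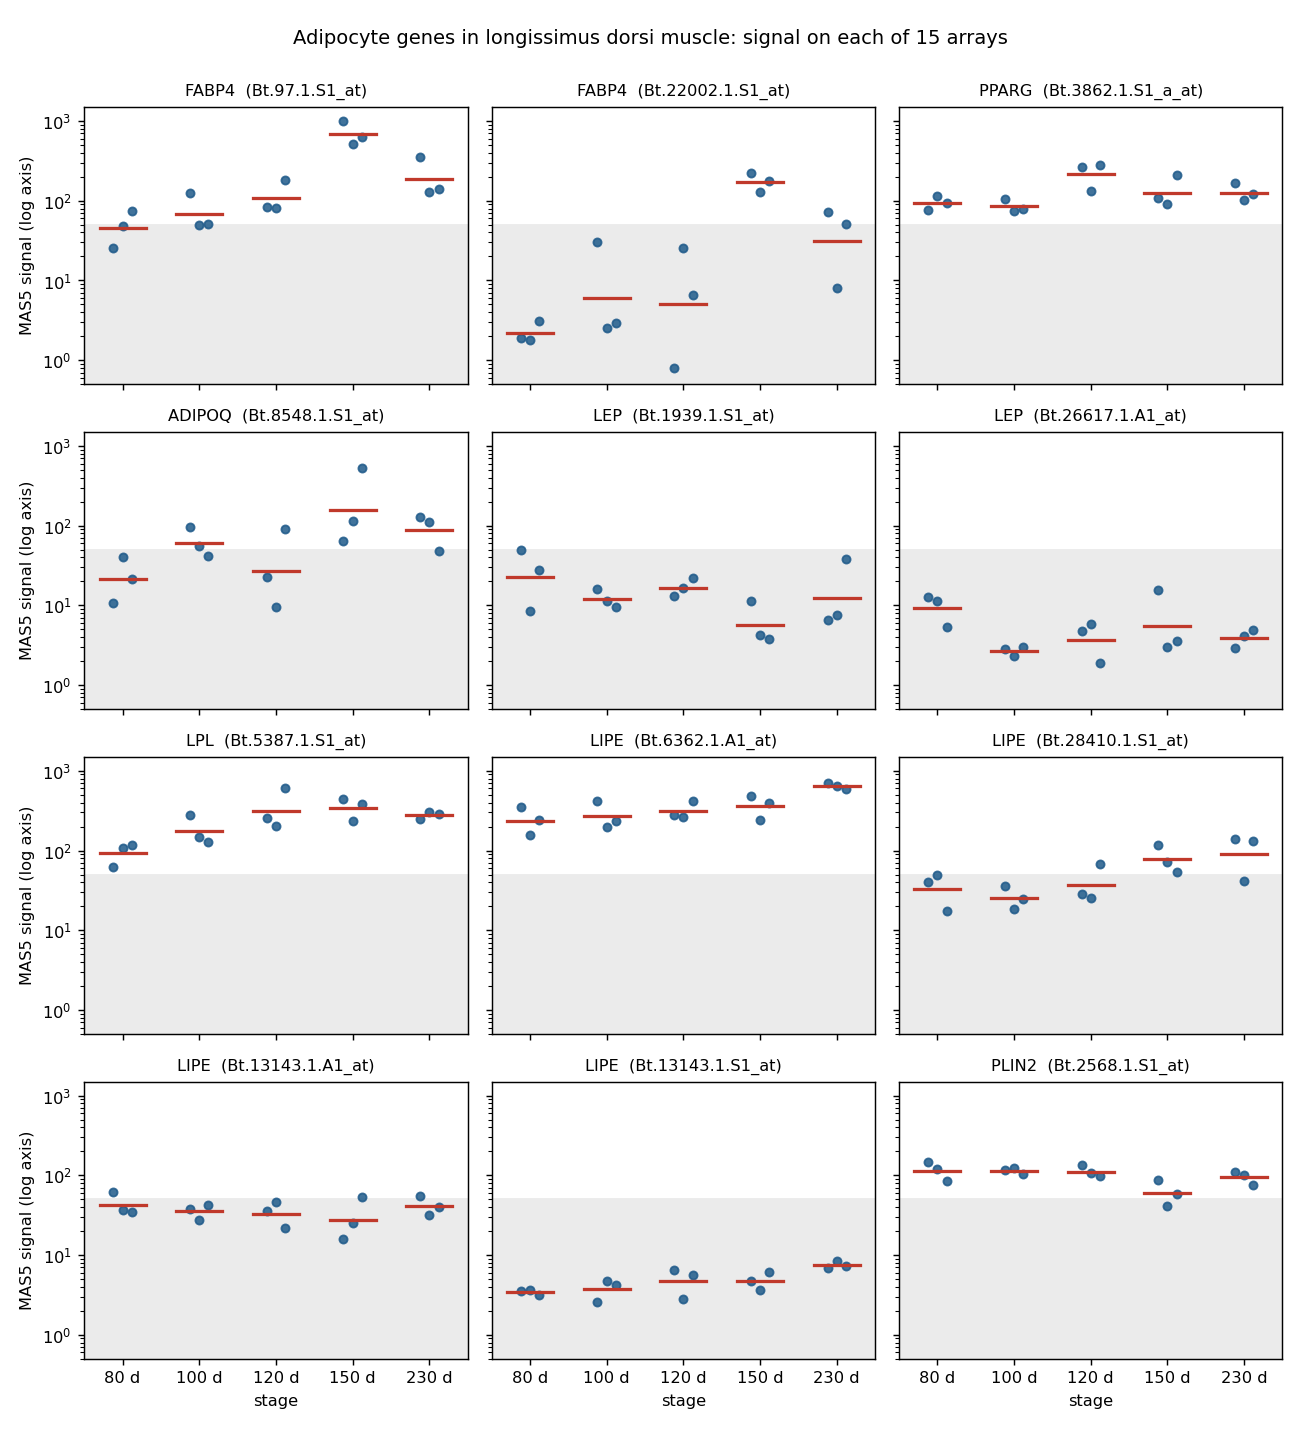
MAS5 signal (log axis, arbitrary units) of all 12 probe sets at 80, 100, 120, 150 and 230 d of development. Each point is 1 array (replicates 1 to 3 from left to right), the red line is the geometric mean of 3 arrays, and the grey area marks signals under 50. The 3 newborn (150 d) points of both FABP4 probe sets lie above all other points of the panel, and both LEP panels lie in the grey area.

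FABP4 was highest just after birth. Its probe set 1 read 25.4, 48.6 and 75.2 at 80 d, 127, 50.3 and 50.6 at 100 d, 83.2, 81 and 182 at 120 d, 993.8, 520.8 and 637.3 at 150 d, and 349.6, 130.1 and 140.2 at 230 d. The 3 newborn arrays were above the other 12, the lamb arrays at 230 d overlapped the fetal arrays at 120 d, and the 120 d arrays lay above those at 80 d. FABP4 probe set 1 averaged 717 ± 246 at 150 d and 115 ± 57.7 at 120 d (SD, 3 animals each). This was a rise of 2.69 on the log2 scale (SE 0.53, 95% interval 1.54 to 3.84), or 6.45-fold, with an adjusted p of 0.00357 in the limma fit of all 15 arrays.

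FABP4 probe set 2 was also called in this interval, but on narrower ground. It read 1.9, 1.8 and 3.1 at 80 d, 30.6, 2.5 and 2.9 at 100 d, 0.8, 25.2 and 6.5 at 120 d, 224.6, 128 and 175.2 at 150 d, and 72.7, 8 and 51.8 at 230 d. All 9 fetal arrays were under 50 and the 3 newborn arrays were above every other array. Since the 120 d level was under 50, its size is given as a bound, at least 3.43-fold higher at 150 d (geometric mean) than a signal of 50 (adjusted p = 0.00998). Its fitted difference was 5.08 on the log2 scale, with an interval of 2.46 to 7.70. Its adjusted p lay just inside the threshold of 0.01. It reached 50 on 5 arrays, the 3 newborn arrays and 2 at 230 d, so it met the requirement of 3 arrays only through the stage in which it was high. With no filter on low signals its adjusted p was 0.0216, which misses the threshold, and that of probe set 1 was 0.00868.

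The calls among the adipocyte genes were few. In all, 2 of 9 probe sets rose at 150 d against 120 d, both of FABP4, and 0 fell. The call of probe set 2 adds no separate support, given how it passed the filter. Over all 15998 probe sets tested, 4.41% rose and 6.77% fell in that interval, 11.2% in all. With array medians set equal, 783 probe sets rose and 657 fell, against 706 and 1083 with the deposited scaling. Scaled instead to the hybridisation controls, which are added to each sample in fixed amount, the median of all probe sets was −0.92 at 150 d against 120 d, against −0.15 as scaled by the authors, 133 probe sets rose and 4716 fell, and both FABP4 probe sets still rose (1.92 and 4.31). Leaving out 1 array at a time kept the call of probe set 1 in 12 of 15 runs (lost without 120 d replicate 1, 120 d replicate 2 or 150 d replicate 1) and that of probe set 2 in 3 of 15. With the 6 arrays of the 2 stages alone the adjusted p was 0.0193 for probe set 1 and 0.0408 for probe set 2.

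At 230 d FABP4 was lower than in newborns, without passing the test. Probe set 1 averaged 207 ± 124 at 230 d and 717 ± 246 at 150 d (SD, 3 animals each), a difference of −1.90 on the log2 scale (interval −3.05 to −0.75, adjusted p = 0.0519), and its 3 lamb arrays were below the 3 newborn arrays. Against 120 d the 230 d level differed by 0.79 (interval −0.36 to 1.94, adjusted p = 0.296). For probe set 2 the 230 d arrays were also below the 150 d arrays (log2 difference −2.46, interval −5.08 to 0.16, adjusted p = 0.248). Over the fetal period probe set 1 differed by 1.24 at 120 d against 80 d (interval 0.09 to 2.39, adjusted p = 0.257).

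Markers of other cell types were read on the same arrays, among them the endothelium and macrophages that can hold FABP4. The summed signal of 6 endothelial markers (PECAM1, CDH5, VWF, TEK, KDR and TIE1) was 1761 to 3300 at 150 d and 5513 to 6519 at 120 d, so it was lower in the newborns in which FABP4 was higher. The sum of 5 macrophage markers (CD68, CD14, CSF1R, AIF1 and ITGAM) was 432 to 604 at 150 d and 493 to 647 at 120 d, which overlap. Of 4 brown adipocyte markers, DIO2 and PRDM16 were not on the array with a symbol of their own, and UCP1, the defining uncoupling protein, averaged 24.9 at 150 d and 18.6 at 120 d, under 50 in both. The fourth, CIDEA, a droplet protein, averaged 29.6 at 150 d and 32.9 at 120 d, also under 50. The sum of 5 muscle fibre markers (ACTA1, CKM, TNNT3, MB and DES) was 85350 to 134100 at 150 d and 58950 to 73880 at 120 d, with no overlap. For 6 fibroblast and matrix markers (COL1A1, COL1A2, COL3A1, DCN, LUM and PDGFRA) the sum was 43250 to 70360 at 150 d and 63930 to 66720 at 120 d, which overlap. The sum of 5 erythroid markers, of red blood cells (HBB, HBA, ALAS2, AHSP and SLC4A1), was 284 to 592 at 150 d and 12400 to 13020 at 120 d. Nearly all of the 120 d sum was the beta-globin HBB, which averaged 249 at 150 d and 12550 at 120 d. ALAS2 was also lower at 150 d (4.73, against 71.5 at 120 d). HBA was not (97.5 at 150 d and 92.4 at 120 d), and AHSP and SLC4A1 averaged under 50 at both stages. The part of these cells in the FABP4 result was not tested.

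PPARG had its highest signals in the oldest fetuses, not in the newborns. It read 76.1, 114 and 94.7 at 80 d, 106.1, 73.8 and 79.5 at 100 d, 268.9, 133.1 and 278 at 120 d, 107.3, 89.9 and 211.1 at 150 d, and 166.3, 100.9 and 120.3 at 230 d. The 120 d arrays were above every array at 80 d and 100 d, and overlapped those at 150 d and 230 d. The level at 120 d was 227 ± 81.2, against 86.5 ± 17.2 at 100 d (SD, 3 animals each). The log2 difference of 1.33 (interval 0.55 to 2.12) did not pass over all probe sets (adjusted p = 0.284), nor did that of 120 d against 80 d (1.20, interval 0.41 to 1.98, adjusted p = 0.0919). The newborns, highest for FABP4, were not highest for PPARG: its difference at 150 d against 120 d was −0.76 (interval −1.55 to 0.02, adjusted p = 0.154), and at 230 d against 120 d it was −0.77 (interval −1.55 to 0.02, adjusted p = 0.138). Both passed when arrays were scaled to their hybridisation controls (−1.53 and −1.74), where most probe sets were lower than at 120 d.

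LPL had its lowest signals in the youngest fetuses. It read 62.2, 108.5 and 118.2 at 80 d, 278.6, 148.5 and 128.8 at 100 d, 257.1, 203 and 613.8 at 120 d, 437.1, 231.7 and 388.5 at 150 d, and 251.8, 303.4 and 287.5 at 230 d. All arrays from 100 d onward were above all 3 arrays at 80 d. The log2 difference at 120 d against 80 d was 1.78 (interval 0.85 to 2.70, adjusted p = 0.0374), which missed the threshold of 0.01. The earlier step, 100 d against 80 d, gave 0.91 (interval −0.01 to 1.84, adjusted p = 0.622). From 120 d the 3 later stages overlapped: the difference was 0.10 at 150 d against 120 d (interval −0.83 to 1.03) and −0.18 at 230 d against 120 d (interval −1.11 to 0.75). By quantitative PCR (qRT-PCR), the study reported a strong rise of LPL from the late fetus to the newborn, which this probe set did not show. The study measured LPL that way among genes that the array lacked, did not report, or could not tell from related genes.

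ADIPOQ was uneven within stages. It read 10.8, 40.7 and 21.6 at 80 d, 97, 55.8 and 41.3 at 100 d, 22.9, 9.4 and 91.8 at 120 d, 63.4, 114.5 and 521.9 at 150 d, and 127.6, 112 and 48 at 230 d. The newborn arrays were spread from 63.4 to 521.9, 120 d replicate 3 overlapped them, and 7 of 15 arrays were under 50. The difference at 150 d against 120 d was 2.53 on the log2 scale (interval 0.63 to 4.43, adjusted p = 0.056) and 1.66 without 150 d replicate 3, the array at 521.9. At 230 d against 120 d it was 1.71 (interval −0.19 to 3.60, adjusted p = 0.172), and at 230 d against 150 d it was −0.82 (interval −2.72 to 1.08). LEP, the other hormone, gave no signal of 50 on any array: its probe set 1 ranged from 3.8 to 49.9, with its highest value in an 80 d fetus, and probe set 2 ranged from 1.9 to 15.4. Leptin was thus too dim to compare at any stage, and no fold change is given.

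PLIN2 had its lowest stage mean in the newborns. It read 145.7, 121.3 and 85.5 at 80 d, 116.1, 122 and 102.8 at 100 d, 134.1, 105.7 and 97 at 120 d, 88.5, 41.5 and 59 at 150 d, and 110.8, 102.4 and 75 at 230 d. The 3 newborn arrays were below all those at 100 d and 120 d, and overlapped those at 80 d and 230 d. The level was 63.0 ± 23.8 at 150 d and 112 ± 19.4 at 120 d (SD, 3 animals each), a log2 difference of −0.89 (interval −1.51 to −0.27) that did not pass (adjusted p = 0.042). At 230 d against 150 d it was 0.66 (interval 0.04 to 1.28, adjusted p = 0.195). The first of these passed with hybridisation control scaling (−1.66).

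LIPE was brightest in the lambs. LIPE probe set 1 read 353.8, 158.1 and 238 at 80 d, 418.6, 195.8 and 235.4 at 100 d, 277.8, 265.2 and 417.3 at 120 d, 485, 243.3 and 394.2 at 150 d, and 699.9, 647.2 and 588.2 at 230 d. The 3 lamb arrays were above the other 12, which overlapped across the 4 earlier stages. The log2 difference was 1.04 at 230 d against 120 d (interval 0.26 to 1.82, adjusted p = 0.0501) and 0.84 at 230 d against 150 d (interval 0.06 to 1.62, adjusted p = 0.189). Neither passed the threshold. The muscle fibre marker sum was also highest in the lambs, at 137100 to 180500 for 230 d, and its part in the LIPE values was not tested. The array identifier of this probe set carries the tag A1, which marks a sequence cluster that the array's maker read in the antisense orientation. Whether the probe set reports the LIPE messenger was not tested. LIPE probe set 3 and LEP probe set 2 carry the same tag.

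The other LIPE probe sets were dim and did not all show this. LIPE probe set 2 read 39.9, 49 and 17.5 at 80 d, 35.8, 18.5 and 24.3 at 100 d, 28.3, 25.6 and 68.7 at 120 d, 116.3, 72.7 and 54.3 at 150 d, and 137.9, 41.4 and 133.4 at 230 d. Its log2 difference was 1.07 at 150 d against 120 d (interval −0.13 to 2.27, adjusted p = 0.193) and 1.31 at 230 d against 120 d (interval 0.11 to 2.51, adjusted p = 0.0999), with overlapping arrays in both. LIPE probe set 3 reached 50 on 3 arrays, 1 each at 80 d, 150 d and 230 d, and ranged from 15.7 to 62.7 with no order of the stages. LIPE probe set 4, of the same design sequence but without the tag A1, stayed between 2.6 and 8.5.

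**Figure D2:**
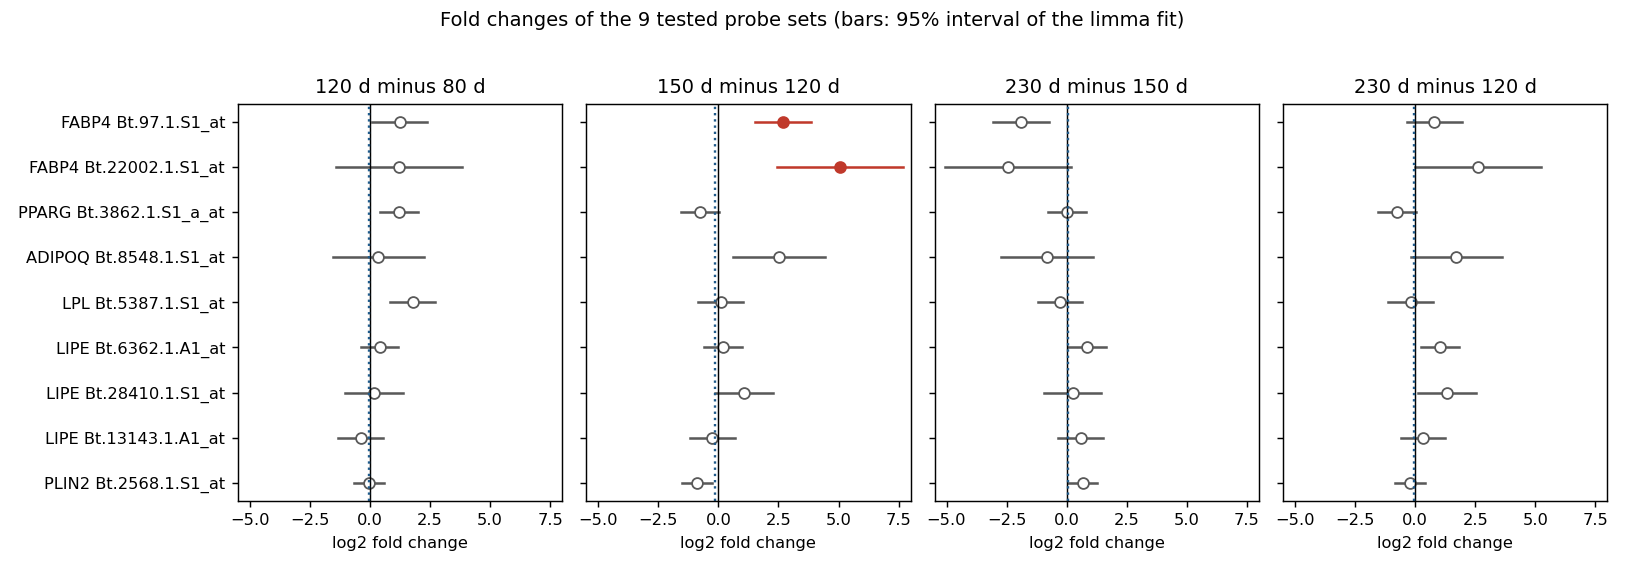
Log2 fold change (later minus earlier stage, x axis) of the 9 tested probe sets in 4 contrasts, with bars for the 95% interval of the limma fit. Filled red points passed an adjusted p of 0.01, differences between levels under 50 are drawn as well, and the dotted line is the median of all 15998 probe sets tested. Both red points are FABP4 at 150 d minus 120 d (2.69 and 5.08).

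Outside the birth interval none of the 9 probe sets passed. The test called 0 of 9 at 100 d against 80 d (0.125% of all probe sets), 0 at 120 d against 100 d (0.0563%), 0 at 120 d against 80 d (1.31%), 0 at 230 d against 150 d (2.03%) and 0 at 230 d against 120 d (14.2%; 5.79% higher and 8.41% lower). At an unadjusted p under 0.05 the counts were 0 of 9 at 100 d against 80 d (8.24% of all probe sets), 1 at 120 d against 100 d (7.44%), 3 at 120 d against 80 d (16.8%), 3 at 230 d against 150 d (22.8%), 2 at 230 d against 120 d (38.5%) and 4 at 150 d against 120 d (35.1%). The last of these lay near the share of the whole array, and that at 230 d against 120 d lay under it. Over all 5 stages together the moderated F-statistic called 25.8% of probe sets and 2 of the 9, both of FABP4 (adjusted p = 5.76e-04 for probe set 1 and 0.00632 for probe set 2). LPL was next at 0.0138, then LIPE probe set 1 at 0.0369, and the other 5 lay between 0.0496 and 0.671.

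Counted by whether all 3 arrays of a stage lay apart from all 3 of the other, the adipocyte genes gave counts of 1 to 3 of 9. There were 2 of 9 at 100 d against 80 d, where 19.1% of all probe sets did so, 1 of 9 at 120 d against 100 d, with the later stage above (6.88% above and 9.09% below over all probe sets), 3 of 9 at 150 d against 120 d (37.3%), 3 of 9 at 230 d against 150 d (24.0%), 3 of 9 at 120 d against 80 d (26.7%) and 1 of 9 at 230 d against 120 d (41.7%). The median log2 difference of the 9 probe sets was 0.20 at 150 d against 120 d, beside −0.15 for all probe sets, and 0.79 at 230 d against 120 d, beside −0.06. At 150 d against 120 d the spread among them was wide, with FABP4 at the upper end and PLIN2 at the lower.

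The genes also varied between animals of the same stage, and some varied together. In all 5 stages the animal with the highest ADIPOQ signal also had the highest PPARG signal: replicate 2 at 80 d, replicate 1 at 100 d, replicate 3 at 120 d, replicate 3 at 150 d and replicate 1 at 230 d. At 80 d all 3 ADIPOQ signals were under 50, as were 2 of 3 at 120 d and 7 of 15 in all, so the order at 80 d and part of the likeness rest on dim signals. After each stage mean was removed, the log2 signals of PPARG and ADIPOQ had a Pearson r of 0.806 and a Spearman rho of 0.736 over 15 arrays, and r was 0.67 without the 2 arrays farthest from the median for PPARG. FABP4 and LPL had an r of 0.739 (rho 0.668, and 0.835 without 2 arrays) and the same highest animal in 4 of 5 stages. PLIN2 had r between −0.134 with ADIPOQ and 0.401 with LIPE. The r of LIPE ranged from 0.131 with ADIPOQ to 0.475 with LPL. These are descriptions over 15 pairs of genes, each represented by its brightest probe set; both genes of a pair were read on the same array and shared its scaling and RNA, and no p is given.

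Single arrays were high or low for most of the genes at once. 230 d replicate 1 was the highest of its stage for 8 of the 9 probe sets and 100 d replicate 1 for 7 of 9, with median deviations from the stage mean of 0.42 and 0.64 on the log2 scale. 150 d replicate 2 was the lowest of its stage for 6 of 9 and the highest for 0 (median deviation −0.445), and it had the lowest array median, 51.4. The median deviation of all tested probe sets on these 3 arrays was 0.02, 0.04 and −0.06. On 150 d replicate 2 the marker sums of muscle fibre (85346.5), endothelium (1761) and fibroblasts and matrix (43252.1) were also the lowest of the stage. Those of macrophages and erythroid cells were not. 100 d replicate 1 was highest for muscle fibre (67797.4) and matrix (74486) and lowest for endothelium, macrophages and erythroid cells. Whether these animals had more or less fat, or other cells, in the sampled piece was not tested.

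**Figure D3:**
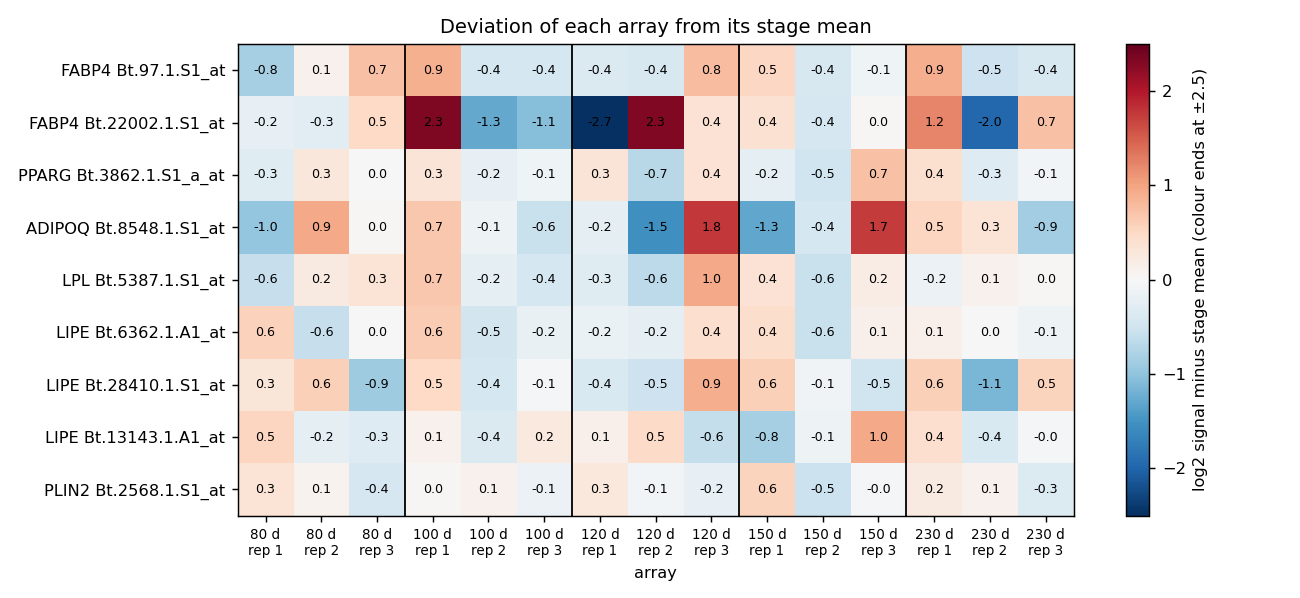
Log2 signal minus the mean of its stage for the 9 tested probe sets (rows) on 15 arrays (columns, 3 per stage, divided by black lines). Red is above and blue below the stage mean, with the colour ending at 2.5 in either direction. The columns of 100 d replicate 1 and 230 d replicate 1 are mostly red, that of 150 d replicate 2 mostly blue.

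The genes whose profile over the 15 arrays was most like that of each adipocyte gene were found among 7547 single-symbol genes, by Pearson r of log2 signals with stage differences left in. For FABP4 these were MPP1 (0.918), DHRS4 (0.918) and HINT2 (0.913), and for ADIPOQ they were COA8 (0.847), CCDC127 (0.829) and SCRN2 (0.826). PPARG had the least close neighbours, RDX (0.782), C4A (0.754) and WDR74 (0.688). LPL was closest to CTNS (0.871), S100A4 (0.853) and AQP7 (0.841), the last a glycerol channel of fat cells. LIPE was closest to GCDH (0.934), MTUS1 (0.92) and EPHX1 (0.899), and PLIN2 to NAT14 (0.901), RHOB (0.899) and CBX6 (0.893). The listed adipocyte genes were left out of the candidates beforehand, so none of them could be named here.

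The genes that act beside these ones in fat and in muscle were read from 7 lists, each gene by its brightest tested probe set. PPAR targets, genes that PPAR receptors switch on and that mostly burn fatty acids in mitochondria, gave the most calls: 11 of 15 rose at 150 d against 120 d and 0 fell, where 4.41% of all probe sets rose and 6.77% fell. The muscle fibre marker sum given above was higher in the same newborns, and its part in this count was not tested. PDK4, which diverts pyruvate from oxidation, averaged 4676 ± 3123 at 150 d and 216 ± 36.4 at 120 d (SD, 3 animals each; log2 difference 4.19, adjusted p = 5.16e-05). UCP3, the muscle uncoupling protein, rose by 3.00, FABP3, the fatty acid carrier of muscle fibres and heart, by 2.59, and ACADVL, a β-oxidation enzyme, by 2.52. The tag A1 described for LIPE is also carried by the probe sets of 15 of the 75 genes in the 7 lists, among them PDK4, ACADM, NCOA1, NAMPT, NNAT, G0S2 and PLIN5, and whether these report the genes' own messengers was not tested. The count was 8 to 11 of 15 when 1 array was left out, and 6 of 15 when arrays were scaled to their hybridisation controls.

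The lists closer to the fat cell had fewer calls than the PPAR targets. Of 15 genes of lipogenesis and triglyceride synthesis 4 rose at 150 d against 120 d and 0 fell (4.41% and 6.77% over all probe sets): GPD1, which makes glycerol phosphate (log2 difference 2.66), AGPAT2, an acyltransferase of triglyceride synthesis (at least 2.87-fold, its 120 d level being under 50), the malic enzyme ME1 (1.91) and the acyl-CoA synthetase ACSL1 (1.78). AGPAT2 reached 50 on 6 of 15 arrays. It averaged 28.7, 44.6 and 14.8 at the 3 fetal stages, 150.6 at 150 d and 99.9 at 230 d. It thus passed the filter largely through the stages in which it was high, and its call adds little to the count. The number of this list that rose was 2 to 5 of 15 when 1 array was left out (2 without 120 d replicate 1 or 150 d replicate 2) and 2 with hybridisation control scaling. The fatty acid synthase FASN (0.68) and the desaturase SCD (1.13) were not called. None of 13 genes of lipolysis and the lipid droplet was called, among them PNPLA2, the first lipase of stored triglyceride (0.49), and PLIN5, the droplet coat of oxidative muscle (−0.06). CIDEC, a protein of fat cell droplets, was dim at both stages (34.4 at 150 d and 39.2 at 120 d). In this list 3 of 13 fell with hybridisation control scaling, 1 fell with quantile normalization and 0 to 1 fell when 1 array was left out.

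Of the factors that promote or hold back fat cell formation, a few were called in each direction. At 150 d against 120 d, 1 of 13 rose and 2 fell, where 4.41% of all probe sets rose and 6.77% fell. The list's median log2 difference was −0.25, beside −0.15 for all probe sets. CEBPB, an early adipogenic factor that also responds to hormones and inflammation, was 298 ± 42.3 at 150 d and 94.8 ± 2.71 at 120 d (SD, 3 animals each). Its log2 difference was 1.64 (limma adjusted p = 0.00255). DLK1, a marker of preadipocytes and of fetal muscle that holds back adipogenesis, fell by 1.74 and the coactivator NCOA1 fell by 1.24. CEBPA, the partner of PPARG in mature fat cells, reached 50 on 5 of 15 arrays and was not called, with geometric means under 50 at both stages. At 230 d against 120 d, 3 rose (CEBPB by 3.30, CEBPD by 2.84 and STAT5B by 1.05) and 3 fell (DLK1, KLF5 and NCOA1). Over all probe sets 5.79% were higher and 8.41% lower in that interval. Without 120 d replicate 2 or 120 d replicate 3, 0 rose at 150 d, CEBPB included, and 1 rose at 230 d; 1 also rose at 230 d without 230 d replicate 2. With hybridisation control scaling the counts were 0 rising and 5 falling at 150 d, and 1 rising and 6 falling at 230 d, against 120 d.

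Among fat cell hormones and their receptors, 2 of 12 rose at 150 d against 120 d and 0 fell, NAMPT (1.21) and NNAT (1.05). Neither is limited to fat cells, and no more than 1 gene of the list was called when any 1 array was left out. The NNAT rise came within a longer decline. Its mean signal was 1991 in the youngest fetuses, 156.6 in the oldest, 335.2 in newborns and 62.5 in lambs. NNAT was called lower for 120 d against 80 d (log2 difference −3.68) and for 230 d against 150 d (−2.36). CFD (adipsin), a product of fat cells, averaged 116 ± 40.5 at 150 d and 62.9 ± 52.7 at 120 d (SD, 3 animals each; adjusted p = 0.456), and RETN (resistin) stayed under 50 on all 15 arrays. Of 10 genes of fatty acid uptake, 2 rose at 150 d against 120 d, FABP3 and the lipoprotein receptor VLDLR (0.81, limma adjusted p = 0.00877). With 1 array left out, 1 or 2 genes of the list were called. The fatty acid transporter CD36 differed by 0.19 (limma adjusted p = 0.626). For CD36, as for LPL, the study reported a strong rise from the late fetus to the newborn by qRT-PCR. Of 3 thermogenic genes tested, UCP3 rose, and UCP1 was not tested because it reached 50 on 1 array. Beside the counts of these lists, 4.41% of all probe sets rose and 6.77% fell between the same stages. Whether such small lists differ from those shares was not tested. FABP3 and UCP3 were already counted among the PPAR targets. With hybridisation control scaling 0 rose and 1 fell among the hormones and receptors, and 1 rose in fatty acid uptake. UCP3, FABP3, ACSL1, ANGPTL4, CD36 and CIDEA each stand in 2 lists.

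Across the longer interval, 230 d against 120 d, PPAR targets again gave the most calls, with 10 of 15 higher and 0 lower. ANGPTL4, a secreted inhibitor of LPL, had a geometric mean of 348.9 at 230 d and 37.4 at 120 d, so that its 230 d level was at least 6.98-fold higher when set against 50 (adjusted p = 0.00171). LPL itself was not called in that interval. In lipogenesis 3 rose and the citrate lyase ACLY fell (79.9 ± 11.6 at 230 d, against 229.5 ± 54.3 at 120 d), and of 13 lipolysis and droplet genes 1 was called: G0S2, an inhibitor of the lipase PNPLA2, had a geometric mean of 9.93 at 230 d and 68.9 at 120 d, so that it was at least 1.38-fold lower at 230 d when its 120 d level is set against 50. G0S2 reached 50 on 7 of 15 arrays. PNPLA2 itself differed by 0.98 (adjusted p = 0.0135). Over all probe sets 5.79% were higher and 8.41% lower. With hybridisation control scaling the PPAR targets gave 6 higher and 0 lower, lipogenesis 1 higher and 5 lower, and lipolysis and droplet genes 0 higher and 4 lower.

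**Figure D4:**
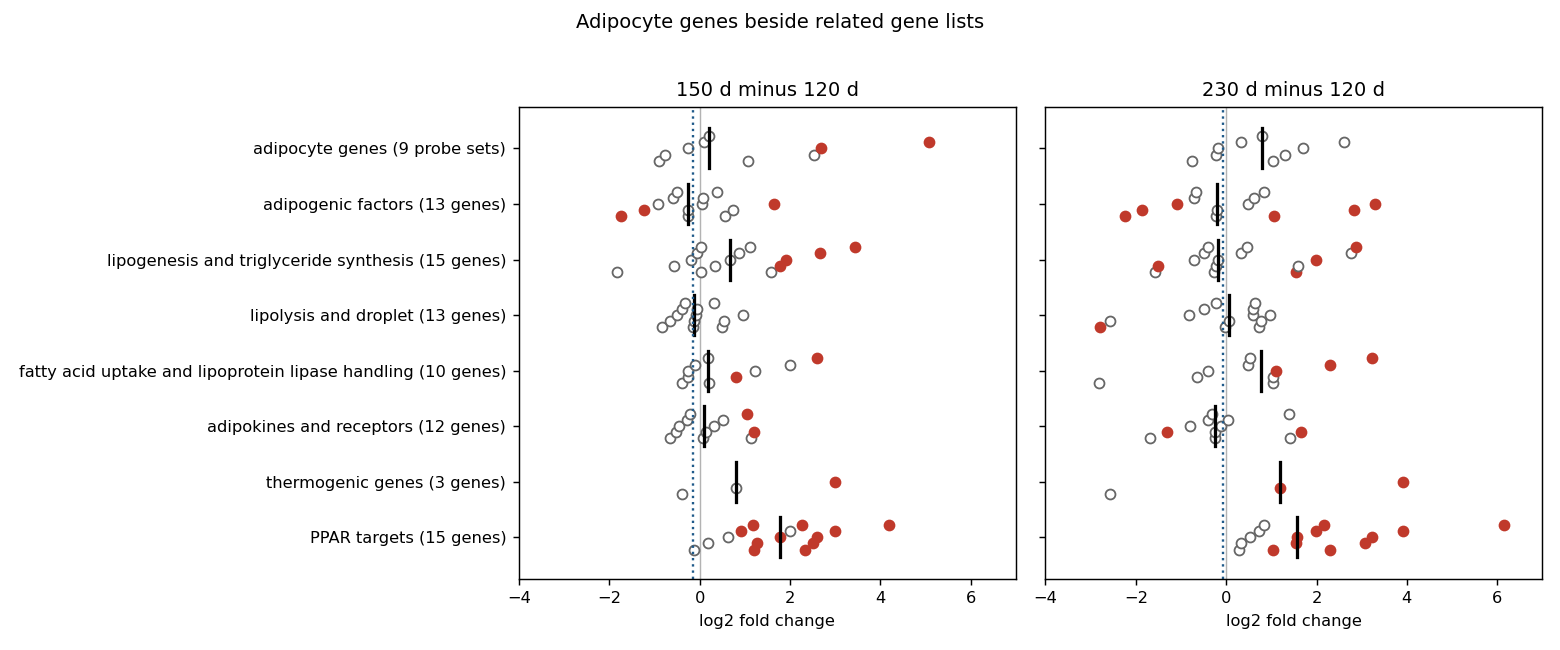
Log2 fold change (x axis) of the 9 adipocyte gene probe sets and of 7 related gene lists at 150 d minus 120 d (left) and 230 d minus 120 d (right). Each circle is a gene, except in the adipocyte gene row, where it is a probe set and the 9 circles stand for 6 genes. Circles are filled red where the adjusted p was under 0.01, and the red ones of the adipocyte gene row are both FABP4. The black bar is the list's median and the dotted line the median of all 15998 probe sets. The PPAR targets hold 11 and 10 red points, the lipolysis and droplet list 0 and 1.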

How the data were processed

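Total RNA of LD muscle from 3 sheep at each of 5 stages was hybridised to the Affymetrix bovine array, 1 sample an array. The deposited values are MAS5 signal intensities on a linear scale: the authors subtracted background, used perfect match and mismatch probes, and brought every array to the same mean, 200, so changes in total RNA per cell are not seen. Depth does not apply to arrays, and 3 animals a stage limit the precision. The 112 control probe sets were set aside, signals under 0.1 (2 values) were set to 0.1, log2 was taken, and probe sets at 50 or more on at least 3 arrays were kept (15998 of 24016, 66.6%). A linear model of stage means was fitted to 15 arrays with limma 3.58.1 (R 4.3.3; lmFit and eBayes, 10 residual degrees of freedom). The study's methods compared adjacent stages at a false discovery rate of 0.01; here 6 contrasts and the moderated F-statistic were called at a Benjamini-Hochberg adjusted p under 0.01 over all kept probe sets. Fold changes are ratios of geometric means; where a called level lay under 50 the fold was taken against 50; where both levels did, the text names no fold change outside the list of reversals. The p-values measure the spread between animals of these stages.

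Gene symbols came from the platform annotation: 13292 probe sets had 1 symbol, 86 had several and 10638 had none, and those with several were not named. No annotated cattle identifier matched the sheep gene table, so symbols were kept as annotated. Every probe set of the 8 genes was named whatever its values, with the 3 most similar genes for each; a gene is led by its probe set of highest mean log2 signal. The 8 genes, the 7 related lists and the cell type markers were chosen with earlier results of these data known, and support nothing by their choice. Sequences and genome positions were not used here. Same-numbered arrays of different stages came from different animals, and their deviations correlated at −0.053 to 0.207 over 30 pairs, so replicate numbers were not taken as pairs. The fit was tested on simulated data. Alternatives were other scalings (equal medians, quantile, hybridisation controls), an offset of 16, no filter or a minimum of 100, limma with trend and robust options, the 6 arrays of a contrast alone, a replicate block and leaving out each array; for the related lists, scalings and left-out arrays were added after seeing the data. Figures were drawn with matplotlib 3.10.9.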

Additional observations from a re-analysis of the deposited data

How the results depend on the processing

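Of 1272 combinations of 54 fold changes (9 probe sets in 6 contrasts) and an alternative, 1205 kept direction and side of the threshold, 20 were weaker, 4 stronger and 43 reversed. The reversals fell on 19 fold changes, 0 of them called and none over 0.82 in size. The weaker ones were all FABP4 at 150 d against 120 d, which kept its direction throughout (1.92 to 3.07 for its probe set 1 and 2.91 to 6.23 for probe set 2). The count of adipocyte gene probe sets rising in that interval, 2, was 1 with no filter, 1 with trend and robust options, 0 with the 6 arrays alone and 0 to 2 when 1 array was left out (0 without 120 d replicate 1 or 150 d replicate 1). The count called by the F-statistic, 2, was 1 with no filter and 1 to 3 with 1 array left out. Hybridisation control scaling made 2 probe sets fall at 150 d against 120 d (PPARG −1.53 and PLIN2 −1.66) and 2 at 230 d against 120 d, where PPARG was −1.74 and PLIN2 −1.21. It reversed LPL (−0.67) and LIPE probe set 1 (−0.57) at 150 d against 120 d, FABP4 probe set 1 (−0.18) and LIPE probe set 3 (−0.65) at 230 d against 120 d, PLIN2 (0.13) and PPARG (0.014) at 100 d against 80 d, and PLIN2 at 120 d against 80 d (0.17) and against 100 d (0.037). The last also reversed with equal medians (0.017) and quantile normalization (0.036). With 1 array left out, reversals were seen in these ranges. At 100 d against 80 d they were −0.23 to 0.15 for PLIN2, −0.29 to 0.008 for PPARG and −0.14 to 0.47 for LIPE probe set 1. At 120 d against 100 d they were −0.16 to 0.071 for PLIN2, −1.41 to 1.08 for FABP4 probe set 2, −0.003 to 0.55 for LIPE probe set 1 and −0.35 to 0.19 for LIPE probe set 3. At 120 d against 80 d they were −0.26 to 0.13 for PLIN2, −0.53 to 1.12 for ADIPOQ and −0.27 to 0.48 for LIPE probe set 2. At 150 d against 120 d they were −0.22 to 0.57 for LPL, −0.017 to 0.48 for LIPE probe set 1 and −0.55 to 0.16 for LIPE probe set 3. At 230 d they were −0.50 to 0.29 for LPL against 120 d and, against 150 d, −1.47 to 0.05 for ADIPOQ, −0.054 to 0.81 for LIPE probe set 2 and −0.25 to 0.36 for PPARG. The cause was not tested; the 6 arrays alone leave fewer degrees of freedom.

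With the replicate number as a block, 1 adipocyte gene probe set rose at 150 d against 120 d and 1 was called by the F-statistic; FABP4 probe set 2 then had an adjusted p of 0.0187. No other call of an adipocyte gene changed with the block.

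Over all probe sets, calls at 150 d against 120 d numbered 1789, against 1110 with no filter, 4849 with hybridisation control scaling, 2 with the 6 arrays alone and 891 to 1791 with 1 array left out. At 230 d against 150 d they were 324 (151 higher, 173 lower), against 119, 173 and 0 for the same settings, 592 with trend and robust options and 138 to 265 with 1 left out; equal medians gave 74 higher and 234 lower. At 230 d against 120 d they were 2272, against 1512, 6299 and 457 (1326 to 2366 with 1 left out). In fetuses, trend and robust options gave 39 at 100 d against 80 d, 33 at 120 d against 100 d and 427 at 120 d against 80 d, against 20, 9 and 210; the 6 arrays alone gave 2, 0 and 68, and no filter 9, 3 and 127. The F-statistic called 7297 with hybridisation control scaling, against 4135. Dim signal limits LEP, FABP4 probe set 2 (under 50 on 10 of 15 arrays), ADIPOQ (7 of 15) and 3 LIPE probe sets, of which 2 were under 50 on most arrays and 1 on all.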
